A study of Mus musculus with 16 samples.

Results

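The Pax family is a set of 9 paired-box transcription factor genes of the mouse, Pax1 to Pax9, out of 22232 protein-coding gene names in the annotation used here. The genes were chosen by name, as all members of the family. For each gene, ChIP-seq peaks were counted by their midpoint, which had to fall no more than 2500 bp from where a protein-coding transcript begins (the promoter) or elsewhere inside the gene span (the gene body), and promoter and body together are called the locus. The covered length is the summed width of the counted peaks in bp, and the fold enrichment is the value that the peak caller gave each peak over its input.

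The libraries came from 46C mouse embryonic stem cells (ES), which carry a GFP reporter at Sox1 and were grown on feeders with LIF and 2 inhibitors, and from neural cells (NPC) taken on day 6 of neural differentiation in suspension. Wild type cells were compared with shPCGF5 cells, stable lines of the same background that carry a lentiviral short hairpin against Pcgf5 and were picked as clones. Each of these 4 kinds of cells has 1 peak list for H2AK119ub1 and 1 for H3K27me3, which makes 8 histone lists. A further 2 lists, from ES and from NPC, come from Sox1-GFP cells with Flag knocked in at Pcgf5, which the labels give as wild type. There was 1 library per group, so no comparison could be tested, and every difference below is a difference between a pair of libraries. The read totals were not used, so the depth of each list is unknown and a missing peak means only that nothing passed the caller's threshold there. A peak list does not measure expression, so the labels of ES and NPC could not be checked against marker transcripts.

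Pax proteins bind DNA through the paired domain and set the identity of organ and cell precursors in the embryo. By sequence they fall into 4 subgroups: Pax1 with Pax9, Pax2 with Pax5 and Pax8, Pax3 with Pax7, and Pax4 with Pax6. Most of them are silent in embryonic stem cells, where genes for developmental regulators are held by the Polycomb complexes. Polycomb repressive complex 1 places ubiquitin on a lysine of histone H2A (H2AK119ub1) through RING1A or RING1B, PCGF5 is 1 of its PCGF subunits, and Polycomb repressive complex 2 methylates a lysine of histone H3 (H3K27me3). CpG-rich DNA is a known landing place of these complexes.

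The DNA just upstream of the start sites differed widely in CpG content within the family. The 300 bp before the first start site held 25 CG pairs at Pax9, 18 at Pax2, 16 at Pax1, 16 at Pax6, 13 at Pax7, 12 at Pax3, 11 at Pax5, 7 at Pax8 and 2 at Pax4. The median over 22226 protein-coding genes was 10, with quartiles of 3 and 20. Windows with at least as many CG pairs as Pax9 made up 17.0% of all, and with at least as many as Pax4 85.9%. Pax8 and Pax4, the 2 genes with the fewest, were also the 2 with peaks in the fewest lists. Among the other genes, Pax5, Pax3 and Pax7, at 11, 12 and 13 CG pairs, had promoter peaks in all 8 histone lists. Pax1, at 16 like Pax6, had them in 7. A link between CpG content and peaks was not tested. The windows of Pax9 and Pax6, which had promoter peaks in all 8 histone lists, are shown beside those of Pax8 and Pax4, which had them in 4 and 3, in mm9, in the direction of transcription, with each CG in capitals; a CG was present in 93.9% of all such windows.
Pax9 upstream, chr12:57792454-57792753, plus strand: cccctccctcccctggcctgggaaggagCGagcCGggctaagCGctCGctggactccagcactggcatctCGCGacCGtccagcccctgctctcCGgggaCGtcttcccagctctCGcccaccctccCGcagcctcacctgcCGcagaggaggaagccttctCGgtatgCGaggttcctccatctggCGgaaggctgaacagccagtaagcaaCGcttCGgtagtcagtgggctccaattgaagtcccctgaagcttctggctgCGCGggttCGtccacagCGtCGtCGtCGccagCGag
Pax6 upstream, chr2:105508753-105509052, plus strand: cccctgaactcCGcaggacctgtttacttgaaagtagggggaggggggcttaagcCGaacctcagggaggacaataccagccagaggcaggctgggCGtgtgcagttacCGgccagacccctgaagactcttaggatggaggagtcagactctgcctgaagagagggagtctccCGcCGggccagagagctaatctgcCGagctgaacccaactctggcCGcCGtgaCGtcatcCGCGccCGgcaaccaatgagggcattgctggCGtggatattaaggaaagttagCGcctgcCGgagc
Pax8 upstream, chr2:24331120-24331419, minus strand: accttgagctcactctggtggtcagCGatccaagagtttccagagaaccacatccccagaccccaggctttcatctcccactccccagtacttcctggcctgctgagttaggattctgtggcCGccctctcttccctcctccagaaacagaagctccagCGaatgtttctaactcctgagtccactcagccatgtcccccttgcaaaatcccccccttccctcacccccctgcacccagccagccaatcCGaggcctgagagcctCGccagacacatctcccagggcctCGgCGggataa
Pax4 upstream, chr6:28399354-28399653, minus strand: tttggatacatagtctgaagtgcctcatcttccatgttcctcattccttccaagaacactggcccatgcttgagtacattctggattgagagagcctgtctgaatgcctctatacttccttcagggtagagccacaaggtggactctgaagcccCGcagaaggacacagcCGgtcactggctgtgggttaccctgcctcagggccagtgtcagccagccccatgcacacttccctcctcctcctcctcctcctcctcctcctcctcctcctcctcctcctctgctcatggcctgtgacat

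A stretch of DNA lay under a peak in all 8 histone lists at 3 genes, and these stretches mark the part of each locus that every histone library called. At Pax9 it was 83 bp long, with its centre at -858 bp from the start site, outside the gene. At Pax2 the longest of 2 such stretches was 150 bp, in an intron and 1585 bp downstream of the nearest start site, and together they spanned 206 bp. At Pax7 the longest of 2 was 158 bp, in an intron 12650 bp downstream of the first start site, and together they spanned 211 bp. The 3 longest stretches follow, again with CG in capitals; they held 4, 1 and 3 CG pairs.
Pax9 common stretch, chr12:57791855-57791937, plus strand: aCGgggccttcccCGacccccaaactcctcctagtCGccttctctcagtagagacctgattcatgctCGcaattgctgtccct
Pax2 common stretch, chr19:44835918-44836067, plus strand: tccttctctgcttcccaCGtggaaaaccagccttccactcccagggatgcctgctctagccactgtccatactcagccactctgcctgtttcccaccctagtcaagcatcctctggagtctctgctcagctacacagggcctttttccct
Pax7 common stretch, chr4:139376716-139376873, minus strand: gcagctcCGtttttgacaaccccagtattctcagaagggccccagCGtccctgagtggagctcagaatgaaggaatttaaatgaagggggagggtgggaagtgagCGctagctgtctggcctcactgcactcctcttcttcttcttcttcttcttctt
At Pax5 and Pax6 no base was covered in more than 7 lists, at Pax1 and Pax3 in more than 6, at Pax8 in more than 3 and at Pax4 in more than 2.

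Most Pax promoters carried both Polycomb marks in each kind of cell. H2AK119ub1 peaks were present at the promoters of 7 of 9 genes in wild type ES, where 6.69% of all genes had one, at 8 in shPCGF5 ES (5.96% of all genes), at 8 in wild type NPC (4.98%) and at 7 in shPCGF5 NPC (4.17%). H3K27me3 peaks were present at 8 promoters in wild type ES (13.4% of all genes), at 6 in shPCGF5 ES (12.9%), and at all 9 in wild type NPC (15.7%) and in shPCGF5 NPC (15.5%). With peaks within 1000 bp merged, whose centres can move out of the window, the NPC counts of H3K27me3 were 7 and 6. Both marks were present at 7 promoters in wild type ES (5.34% of all genes), 6 in shPCGF5 ES (4.37%), 8 in wild type NPC (4.73%) and 7 in shPCGF5 NPC (3.86%). Counted over the whole locus, H2AK119ub1 was present at 7, 8, 8 and 7 Pax genes in that order of cells (10.8%, 9.94%, 6.27% and 5.91% of all genes), and H3K27me3 at 8, 7, 9 and 9 (16.9%, 16.3%, 17.6% and 17.6%). A promoter peak in every one of the 8 histone lists was found at 6 genes, Pax9, Pax2, Pax5, Pax3, Pax7 and Pax6, against 1.42% of all genes. Pax1 had a promoter peak in 7 of the 8 lists and a peak in its body in the remaining one, H3K27me3 of shPCGF5 ES.

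Over the 9 loci, the 10 lists held 547 peaks. By the position of the peak centre, 368 were intronic, 70 lay in the non-coding part of an exon, 22 in a coding exon and 87 outside the gene within the promoter window. No start site of another protein-coding gene lay inside any of these loci, and the nearest one was 18790 bp from a Pax start site (Gcc1, next to Pax4). Pax6 has 21 start sites, so its promoter windows cover 25560 bp and all of its histone peaks counted as promoter peaks.

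**Figure D1:**
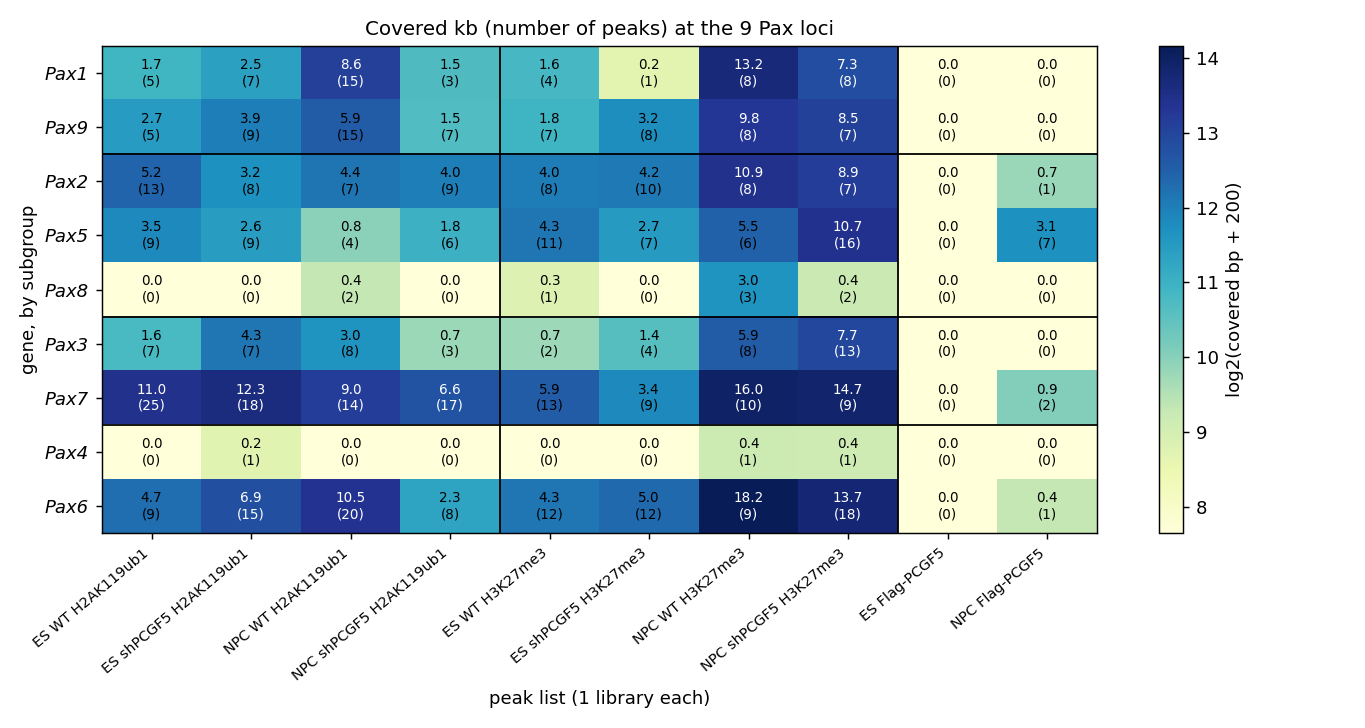
Covered length in kb at each Pax locus, with the number of peaks in parentheses, for the 9 genes in rows by subgroup and the 10 peak lists in columns, each list from 1 library; the colour gives log2 of covered bp plus 200. Pax7 and Pax6 are dark in every histone column, Pax8 and Pax4 are pale in nearly all, and the H3K27me3 columns of NPC are darker than those of ES, up to 18.2 kb at Pax6 in wild type NPC.

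Summed over the family, H3K27me3 covered 22858 bp in wild type ES, 20162 bp in shPCGF5 ES, 82768 bp in wild type NPC and 72259 bp in shPCGF5 NPC. H2AK119ub1 covered 30358 bp in wild type ES, 35932 bp in shPCGF5 ES, 42658 bp in wild type NPC and 18332 bp in shPCGF5 NPC. The lists themselves differed in total covered length, so the share of each list matters beside these sums. The Pax loci took 0.530%, 0.524%, 0.856% and 0.884% of the H3K27me3 lists in the same order, and 1.22%, 1.72%, 1.83% and 1.63% of the H2AK119ub1 lists. As a share, H3K27me3 was higher in both NPC lists than in both ES lists, whereas H2AK119ub1 was lowest in wild type ES and differed little among the other 3.

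**Figure D2:**
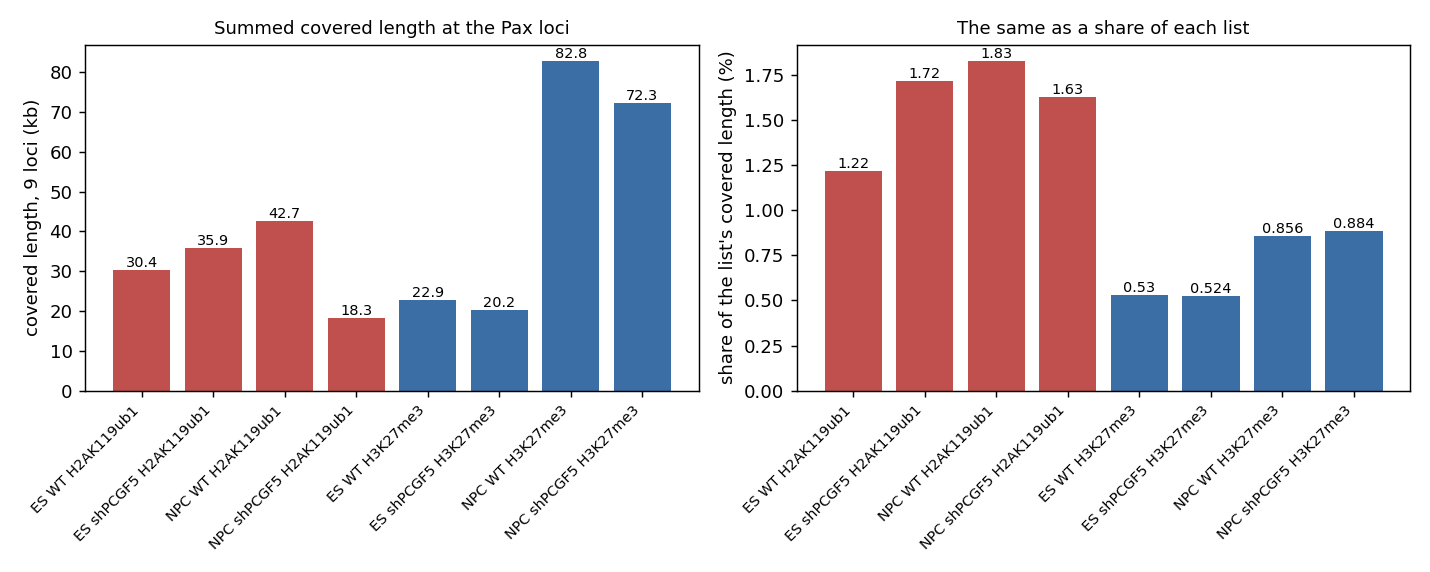
Left, summed covered length in kb over the 9 Pax loci in each histone list (red H2AK119ub1, blue H3K27me3), and right, the same sum as a percentage of the list's whole covered length; each bar is 1 library and has no error. In kb the shPCGF5 NPC bar is the lowest of the H2AK119ub1 lists at 18.3, but as a share it stands at 1.63%, close to the 1.72% and 1.83% of shPCGF5 ES and wild type NPC.

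H3K27me3 spread over the Pax loci in NPC. In wild type cells, the covered length was larger in NPC than in ES at all 9 genes as listed (66.5% of the 5190 genes with a peak in either list), and at 8 after division by the list totals, where Pax5 turned lower. It was at least 2-fold larger at 8 of them (50.1% of genes) and 2-fold lower at 0 (20.9%). In shPCGF5 cells all 9 genes were larger (67.4% of 4886 genes), also after that division, and all 9 were at least 2-fold larger (45.4%) and 0 were 2-fold lower (22%). After division by the list totals, 5 of 9 genes in wild type and 4 of 9 in shPCGF5 cells stayed past 2-fold. These ratios were taken after adding 200 bp to each covered length. A gene listed at 0 bp in 1 of the lists passes easily, so the counts were also taken over genes with a peak in both. There, 7 of 8 Pax genes were 2-fold higher in wild type cells (47.1% of 2487 genes) and 0 lower (4.46%), and 7 of 7 were higher in shPCGF5 cells (41.7% of 2638) and 0 lower (3.87%). The median log2 ratio of NPC over ES among those Pax genes was 2.18 in wild type cells (0.93 over all genes) and 1.92 in shPCGF5 cells (0.78 over all genes). For the sum over the family the log2 ratio was 1.85 in wild type and 1.83 in shPCGF5 cells, while the whole lists differed by 1.16 and 1.09.

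At Pax loci the NPC H3K27me3 peaks were wider than the ES peaks in both genotypes, and in shPCGF5 cells they were also more numerous. The same held over the whole lists. Wild type ES held 58 H3K27me3 peaks at Pax loci and wild type NPC 61, with a median width of 349 bp in ES and 661 bp in NPC, and over the whole lists the medians were 266 and 453 bp. The shPCGF5 ES list held 51 Pax peaks with a median width of 340 bp, and the shPCGF5 NPC list 81 with a median width of 450 bp. The whole shPCGF5 lists held 10234 peaks in ES and 14759 in NPC, with medians of 298 and 360 bp. Pax peaks were 0.498% of the ES list and 0.549% of the NPC list. Of the 58 wild type ES peaks, 49 (84.5%) overlapped an NPC peak by at least 1 bp, and of the 61 NPC peaks 24 (39.3%) overlapped an ES peak, where the shares over the whole lists were 43.0% and 32.4%. By length, NPC H3K27me3 peaks covered 88.1% of the wild type ES length at these loci, and ES peaks covered 23.9% of the NPC length.

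As listed, H2AK119ub1 behaved differently from H3K27me3 between the stages. In wild type cells, 4 of the 8 Pax genes with a peak in either list covered at least 2-fold more bp in NPC than in ES (18% of 3051 genes) and 1 covered at least 2-fold less (40.8%). In shPCGF5 cells none of 8 was 2-fold higher in NPC (11.3% of 2726 genes) and 4 were 2-fold lower (37%). Among genes with a peak in both lists, 3 of 7 Pax genes were higher (21.5% of 748) and 1 lower (18%) in wild type cells, and 0 of 7 higher (6.78% of 796) and 3 lower (19.2%) in shPCGF5 cells. Division by the list totals left 4 higher and 1 lower in wild type cells and changed the shPCGF5 counts to 1 higher and 1 lower. After that division the marks lay close in wild type cells. There the log2 ratio of the Pax sum, NPC over ES, was 0.58 for H2AK119ub1 and 0.69 for H3K27me3. In shPCGF5 cells these ratios were -0.073 and 0.75.

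Between genotypes, the ES and NPC libraries went opposite ways. In ES, 2 of 8 Pax genes covered at least 2-fold more H2AK119ub1 in shPCGF5 than in wild type cells (18.2% of 3341 genes) and none covered 2-fold less (26.7%). In NPC, 1 of 8 covered 2-fold more (17.9% of 1994 genes) and 5 covered 2-fold less (30.9%). Smaller differences included, 7 of 8 Pax genes were lower in shPCGF5 NPC (58% of genes), and 5 of 8 after division by the list totals, where Pax2 and Pax7 turned higher and 3 were 2-fold lower. Among genes with a peak in both lists the Pax median was 0.48 in ES (-0.14 over 1273 genes), with 1 of 7 higher (6.91%) and 0 lower (16.7%), and -1.85 in NPC (-0.37 over 713 genes), with 1 of 7 higher (7.01%) and 4 lower (30.9%). The whole shPCGF5 NPC list was itself shorter than the wild type one by -1.05 on the log2 scale, and the Pax sum by -1.21, so that after division by the list totals the log2 ratio of the Pax sum was -0.16. In NPC, H3K27me3 passed 2-fold between genotypes at fewer Pax genes than H2AK119ub1 did. In ES the counts of the marks did not differ in this way. For H3K27me3, 0 of 8 Pax genes were 2-fold higher (24.3% of 4713 genes) and 2 lower (24.5%) in ES. In NPC, 0 of 9 were higher (20.2% of 4860) and 1 lower (29.5%). Over genes with a peak in both lists, 0 of 7 were higher (7.36% of 2662) and 1 lower (13.4%) in ES, and 0 of 9 higher (6.14% of 2966) and 1 lower (16.4%) in NPC. The part of list length in the H2AK119ub1 difference beyond this division was not tested.

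**Figure D3:**
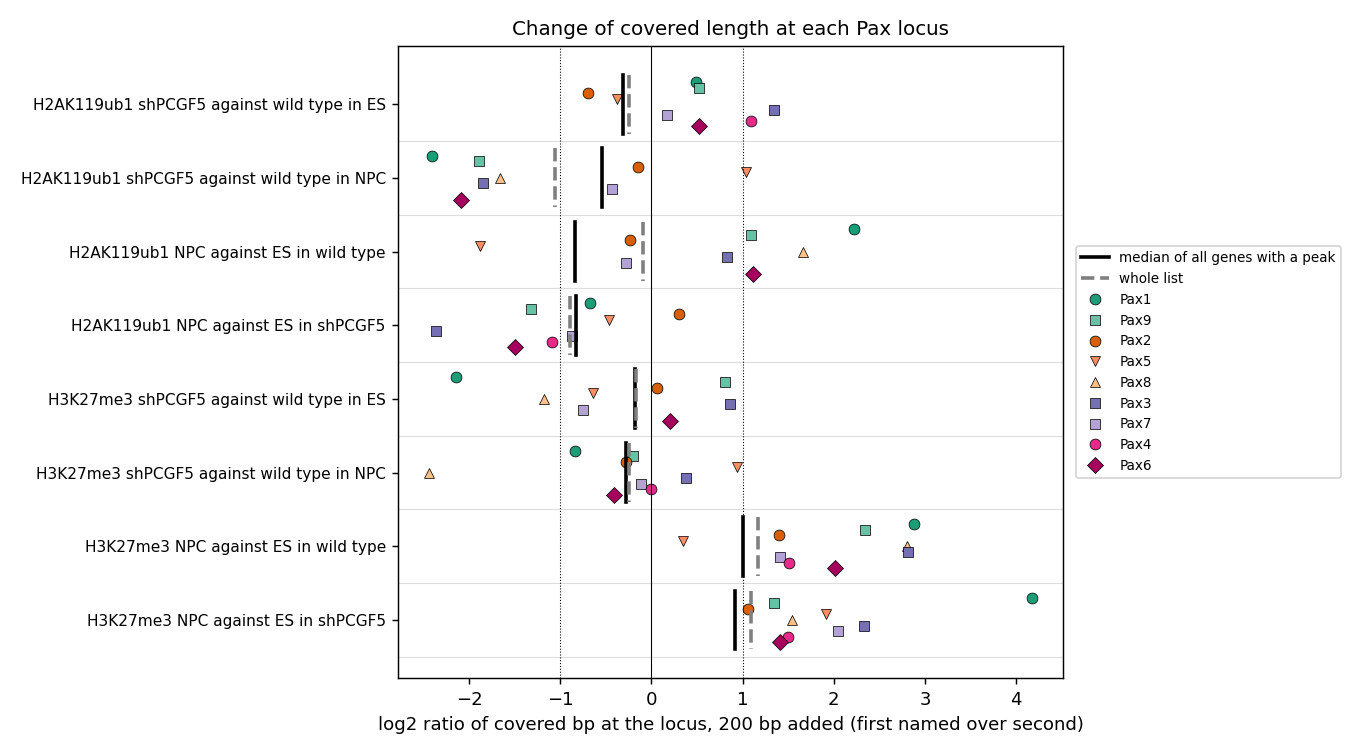
The log2 ratio of covered bp (200 bp added) at each Pax locus for 8 pairs of libraries, first named over second; each marker is 1 gene, the thick line is the median of all genes with a peak in either list, the dashed line is the ratio of the whole lists and the dotted lines mark a 2-fold difference. In the 2 lowest panels, H3K27me3 of NPC over ES, every marker is above 0 (after division by the list totals Pax5 is below 0 in wild type cells), and in H2AK119ub1 of shPCGF5 over wild type NPC 7 of 8 markers are below 0 with Pax5 above (5 of 8 after that division).

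Pax1 and Pax9, which pattern the sclerotome, the pharyngeal pouches and the thymus, were with Pax6 the genes that gained the most H2AK119ub1 length from wild type ES to wild type NPC. Pax1 H2AK119ub1 covered 1700 bp in wild type ES, 2459 bp in shPCGF5 ES, 8636 bp in wild type NPC and 1468 bp in shPCGF5 NPC. The wild type NPC library stood apart from the other 3, with 15 peaks against 5, 7 and 3. Of its covered length 12.3% was also covered in shPCGF5 NPC, whereas 72.1% of the shorter shPCGF5 NPC length was covered in wild type NPC. The log2 ratio of shPCGF5 over wild type was -2.41 in NPC and 0.48 in ES, or -1.42 and 0.71 after division by the list totals. Pax1 H3K27me3 covered 1615, 212, 13186 and 7260 bp in the same order of cells. Its single peak in shPCGF5 ES lay in the gene body, and the log2 ratio against wild type ES was -2.14, or -0.66 with the higher-scoring 50% of peaks. In wild type NPC 1 peak of 7363 bp ran from -464 to 6898 bp of the first start site, the widest peak of the family in any list.

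Pax9, needed for tooth and palate formation, had H2AK119ub1 over 2669, 3917, 5930 and 1454 bp. As at Pax1, wild type NPC was the highest library and shPCGF5 NPC the lowest in bp as listed. The log2 ratio between them was -1.89, or -0.91 after division by the list totals. H3K27me3 covered 1767, 3239, 9798 and 8502 bp at Pax9, so both NPC libraries lay above both ES libraries, and the 2 genotypes of NPC differed by -0.20 on the log2 scale. Neither gene had a Flag-PCGF5 peak.

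Pax2, a regulator of kidney, optic stalk and midbrain-hindbrain boundary, was the most even member between libraries in bp as listed. Its H2AK119ub1 covered 5237 bp in wild type ES, 3169 bp in shPCGF5 ES, 4414 bp in wild type NPC and 3970 bp in shPCGF5 NPC. As listed, no pair of compared libraries differed 2-fold. With the higher-scoring 50% of peaks, shPCGF5 over wild type ES was past it, at -1.29. NPC over ES in shPCGF5 cells reached 1.18 with equal numbers of top-scoring peaks and 1.16 after division by the list totals. Pax2 H3K27me3 covered 3999, 4184, 10863 and 8914 bp, higher in both NPC libraries, with log2 ratios of NPC over ES of 1.40 in wild type and 1.06 in shPCGF5 cells. Part of the signal at Pax2 lay just outside the locus: 6689 bp of wild type NPC H3K27me3 were in the 10 kb upstream, 6146 bp of them in 1 peak. When peaks closer than 1000 bp were merged, the merged peak had its centre outside the locus and the 2 Pax2 ratios became -0.16 and -1.54.

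Pax5, the B cell commitment factor that also acts at the midbrain-hindbrain boundary, differed from most of the family in wild type NPC. Its H2AK119ub1 covered 3457 bp in wild type ES, 2612 bp in shPCGF5 ES, 790 bp in wild type NPC and 1830 bp in shPCGF5 NPC. It was the only Pax gene past 2-fold lower in NPC than in ES in wild type cells, at -1.89, and the only one past 2-fold higher in shPCGF5 than in wild type NPC, at 1.04. The latter was no longer past 2-fold with the higher-scoring 50% of peaks (0.49), a pseudocount of 1000 bp (0.66) or a promoter window of 1000 bp (0.98), and the former with equal numbers of top-scoring peaks (-0.33). H3K27me3 at Pax5 covered 4305, 2695, 5522 and 10741 bp, with 11, 7, 6 and 16 peaks. Pax5 was also the only gene whose H3K27me3 did not reach 2-fold between wild type ES and NPC, with a log2 ratio of 0.34, against 1.92 in shPCGF5 cells, or 0.87 there after division by the list totals.

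Pax8, the thyroid and kidney member of that subgroup, carried little of either mark. H2AK119ub1 was listed at 433 bp in wild type NPC, in 2 promoter peaks, and at 0 in the other 3 libraries. H3K27me3 covered 254 bp in wild type ES, 2961 bp in wild type NPC and 381 bp in shPCGF5 NPC, and was listed at 0 in shPCGF5 ES. The Pax8 signal was thus mostly that of wild type NPC, where 1 H3K27me3 peak was 2090 bp wide. It was the only Pax gene past 2-fold lower in H3K27me3 in shPCGF5 than in wild type NPC, at -2.44.

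Pax3, which marks dorsal neural tube, neural crest and muscle precursors, was the only gene past 2-fold between genotypes in H2AK119ub1 as listed in both ES and NPC, in opposite directions. H2AK119ub1 covered 1586 bp in wild type ES, 4333 bp in shPCGF5 ES, 2973 bp in wild type NPC and 681 bp in shPCGF5 NPC. The shPCGF5 library was the highest of the 4 in ES and the lowest in NPC, with log2 ratios against wild type of 1.34 and -1.85. After division by the list totals these were 1.57 and -0.95, so that NPC was no longer past 2-fold. A single peak of 2286 bp was longer than the other 6 shPCGF5 ES peaks at Pax3 together. H3K27me3 at Pax3 covered 665, 1368, 5880 and 7678 bp, and both NPC libraries were above both ES libraries. The highest fold enrichment at Pax3 was 10.1 in wild type NPC and 8.11 in shPCGF5 NPC, at the 97.9 and 99.2 percentiles of those lists.

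Pax7, the satellite cell and dorsal neural tube factor closest to Pax3, held the most H2AK119ub1 of the family in 3 of 4 libraries. H2AK119ub1 covered 10962 bp in wild type ES, 12318 bp in shPCGF5 ES, 8990 bp in wild type NPC and 6621 bp in shPCGF5 NPC, and as listed none of the 4 compared pairs differed 2-fold. Of these lengths 8855, 8427, 6690 and 5132 bp lay in the gene body. The log2 ratio of NPC over ES in shPCGF5 cells was -1.03 with the higher-scoring 50% of peaks and 0.002 after division by the list totals. Of the 14 wild type NPC peaks at Pax7, 13 were overlapped by a shPCGF5 NPC peak by at least 1 bp, which covered 49.2% of their length, against 61.7% at Pax2. H3K27me3 at Pax7 covered 5905, 3429, 16004 and 14738 bp. In NPC most of it was in a few wide peaks, of 5765, 3819 and 2638 bp in wild type and of 6112 and 5384 bp in shPCGF5 cells.

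**Figure D4:**
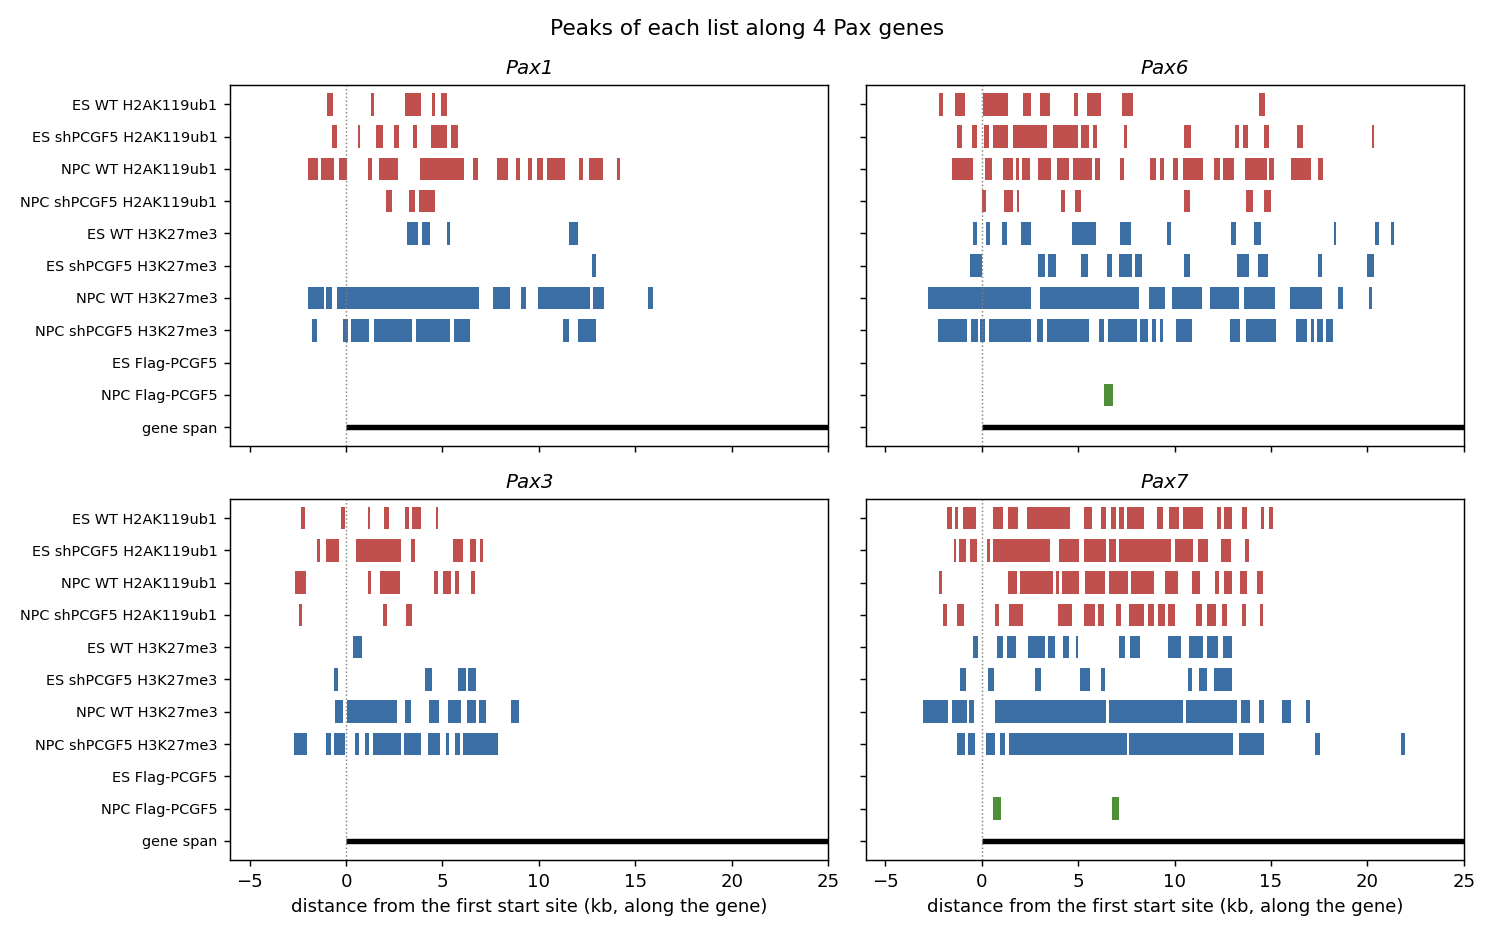
Peaks of the 10 lists along Pax1, Pax6, Pax3 and Pax7, drawn to scale against the distance in kb from the first start site in the direction of transcription (red H2AK119ub1, blue H3K27me3, green Flag-PCGF5, black the gene span, each row 1 library; peaks beyond 25 kb are not drawn). The short ES H3K27me3 peaks stand where wide NPC peaks are drawn. At Pax1, Pax3 and Pax6 the shPCGF5 NPC H2AK119ub1 row holds fewer peaks than the wild type NPC row, and at Pax7 it holds more (17 against 14). The whole lists hold 3845 peaks in shPCGF5 and 5754 in wild type NPC.

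Pax4, which directs pancreatic beta cell fate, was nearly free of peaks. H2AK119ub1 was listed only in shPCGF5 ES, in 1 peak of 226 bp, and H3K27me3 only in NPC, in 1 peak of 367 bp in wild type and 1 of 365 bp in shPCGF5 cells. These 2 NPC peaks shared 58 bp.

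Pax6, the regulator of eye, forebrain and pancreatic islet and a marker of neural precursors, held the most H3K27me3 of the family in wild type NPC. H3K27me3 covered 4348 bp in wild type ES, 5035 bp in shPCGF5 ES, 18187 bp in wild type NPC and 13680 bp in shPCGF5 NPC. Both NPC libraries were above both ES libraries, and wild type NPC had 9 peaks against 18 in shPCGF5 NPC, so the longer coverage came in fewer, wider peaks. By covered length of H3K27me3 in wild type NPC, Pax6 ranked 12th, Pax7 18th, Pax1 34th, Pax2 51st, Pax9 70th, Pax3 212th, Pax5 242nd, Pax8 777th and Pax4 3255th among all 22232 genes. H2AK119ub1 at Pax6 covered 4747, 6898, 10492 and 2308 bp. As at Pax1 and Pax9, wild type NPC was the highest library and shPCGF5 NPC the lowest in bp as listed. The log2 ratio of shPCGF5 over wild type was -2.09 in NPC and 0.52 in ES, or -1.09 and 0.76 after division by the list totals. After that division wild type ES, and not shPCGF5 NPC, was the lowest library at each of these genes. The shPCGF5 NPC peaks covered 19.0% of the wild type NPC length, and the wild type NPC peaks covered 86.2% of the shorter shPCGF5 NPC length.

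A larger share of the H2AK119ub1 peaks at Pax loci lay under H3K27me3 in NPC than in ES, while the share of H3K27me3 peaks under H2AK119ub1 was not larger. Of the H2AK119ub1 peaks at Pax loci, 33 of 73 (45.2%) overlapped an H3K27me3 peak of the same cells in wild type ES, 34 of 74 (45.9%) in shPCGF5 ES, 77 of 85 (90.6%) in wild type NPC and 52 of 53 (98.1%) in shPCGF5 NPC. Over all H2AK119ub1 peaks the shares were 38.8%, 27.6%, 81.3% and 74.5%. The wider NPC H3K27me3 peaks cover more DNA, and their part in these shares was not tested. At Pax6 and Pax7 all 20 and all 14 wild type NPC H2AK119ub1 peaks overlapped H3K27me3, and at Pax5 2 of 4. In the other direction, 35 of 58 (60.3%), 33 of 51 (64.7%), 35 of 61 (57.4%) and 27 of 81 (33.3%) H3K27me3 peaks overlapped H2AK119ub1, against 27.4%, 18.4%, 25.5% and 15.2% over the whole lists.

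Peaks of wild type cells were found again in shPCGF5 cells to different extents. For H2AK119ub1, 51 of 73 (69.9%) wild type ES peaks at Pax loci overlapped a shPCGF5 ES peak, where 25.2% of the whole list did, and 37 of 85 (43.5%) wild type NPC peaks overlapped a shPCGF5 NPC peak, where 26.0% did. For H3K27me3 the counts were 24 of 58 (41.4%) in ES, where 35.1% of the whole list did, and 48 of 61 (78.7%) in NPC, where 58.5% did. In the other direction, 47 of 74 (63.5%) shPCGF5 ES H2AK119ub1 peaks overlapped a wild type ES peak (30.6% of the list). In NPC, 40 of 53 (75.5%) did (42.0%). For H3K27me3 the counts were 25 of 51 (49.0%) in ES (41.6%) and 66 of 81 (81.5%) in NPC (59.5%).

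Flag-PCGF5 peaks were listed at Pax loci in NPC, in a list of 12013 peaks, and not in ES, in a far shorter list. The ES list of 653 peaks had none at any Pax locus, where 0.787% of all genes had a promoter peak and 1.54% a locus peak. With so few genes listed in ES, the absence at 9 genes cannot show a difference between the stages. In NPC, 2 of 9 Pax genes, Pax7 and Pax6, had a promoter peak, where 13.7% of all genes did, and 4 of 9 had a locus peak, where 22.2% did. With each list reduced to an equal number of top-scoring peaks, 0 Pax genes had an NPC promoter peak. Of the 11 NPC Flag-PCGF5 peaks at Pax loci, 7 lay in Pax5 introns between 29241 and 132996 bp from the nearest start site, 2 in Pax7, 1 in a Pax2 intron and 1 in Pax6. Pax5 is the longest gene of the family, at 180302 bp. Among the Pax5 and Pax2 peaks, 1 Pax5 peak met histone peaks, with 500 of its 949 bp under shPCGF5 NPC H3K27me3. The Pax loci took 0.0733% of the covered length of that list, against 0.856% of the wild type NPC H3K27me3 list.

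Only the Pax7 and Pax6 Flag-PCGF5 peaks lay under wild type NPC H3K27me3, that is 3 of 11 (27.3%), where 6.10% of the whole list did, and 1 of 11 (9.09%) lay under wild type NPC H2AK119ub1, where 1.58% did. The Pax6 peak (chr2:105515422-105515862, fold enrichment 1.95) was 441 bp long, all of it under wild type NPC H3K27me3 and none under any H2AK119ub1 list. The Pax7 intronic peak (chr4:139382308-139382704) had the highest fold enrichment of the 11, 3.68, at the 93.8 percentile of its list, and all of its 397 bp were under both marks of wild type NPC. The Pax7 peak near the start site (chr4:139388414-139388872, fold enrichment 2.24) was centred 279 bp downstream, with 345 bp under wild type NPC H3K27me3. The CpG content of the 2 Pax7 peaks differed, with 3 CG pairs in 397 bp and 42 in 459 bp. Their central 300 bp are shown with CG in capitals, because they are the Pax sites where the tagged protein and H3K27me3 coincided and no untranslated exon is included; the second includes 51 coding bases.
Pax7 intronic Flag-PCGF5 peak, chr4:139382356-139382655, minus strand: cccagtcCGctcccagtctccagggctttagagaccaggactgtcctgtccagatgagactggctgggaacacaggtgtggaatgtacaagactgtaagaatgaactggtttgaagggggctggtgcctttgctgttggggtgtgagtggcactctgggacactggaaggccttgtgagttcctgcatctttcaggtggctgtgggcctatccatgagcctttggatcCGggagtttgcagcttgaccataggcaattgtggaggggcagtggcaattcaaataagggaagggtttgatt
Pax7 Flag-PCGF5 peak near the start, chr4:139388493-139388792, minus strand: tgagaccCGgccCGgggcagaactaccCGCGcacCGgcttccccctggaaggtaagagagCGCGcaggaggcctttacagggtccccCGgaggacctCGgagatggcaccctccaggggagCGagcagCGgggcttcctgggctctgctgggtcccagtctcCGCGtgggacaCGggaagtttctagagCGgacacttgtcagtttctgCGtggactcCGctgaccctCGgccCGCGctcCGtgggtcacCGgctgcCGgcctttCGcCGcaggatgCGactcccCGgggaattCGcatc

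Genes that act with Pax genes in the neural tube were set beside the family as a list made from known function. Of the 20 dorsoventral patterning genes of the neural tube, among them Msx2, Gsx1 and Olig2, 19 had a promoter H2AK119ub1 peak (4.98% of all genes) and all 20 a promoter H3K27me3 peak (15.7%) in wild type NPC. Their H3K27me3 was 2-fold higher in NPC than in ES at 17 of 20 (50.1% of all genes with a peak) and lower at 0 (20.9%), with a median of 1.47 in wild type cells (1.00 over all genes). Their H2AK119ub1 in shPCGF5 over wild type NPC was 2-fold lower at 9 of 20 (30.9% of all genes with a peak) and higher at 1 (17.9%), with a median of -0.89, against -1.76 for the 8 Pax genes with a peak in either list and -0.55 over all genes.

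The T-box genes, another family of developmental transcription factors, and the Sox genes are set beside the Pax family for H2AK119ub1 of shPCGF5 over wild type cells. Of 17 T-box genes, 11 had an H2AK119ub1 peak in either genotype of ES, and 7 of these were 2-fold higher in shPCGF5 (18.2% of all genes with a peak) and 0 lower (26.7%), with a median of 1.33 against 0.50 for Pax and -0.31 over all genes. Among the 7, Tbx18, Tbx20, Tbx21 and Tbr1 were at 0 bp in wild type ES. They covered 303, 222, 590 and 702 bp in shPCGF5 ES, so they passed 2-fold easily. Tbx15 and Eomes started from 139 bp. T-box counts over genes with a peak in both lists are not given here. In NPC 9 of 11 were 2-fold lower in shPCGF5 (30.9%) and 0 higher (17.9%), with a median of -1.93 against -1.76 for Pax and -0.55 over all genes, where the whole lists differed by -1.05. Of the 18 Sox genes, 13 had a peak in either genotype of ES, with 2 of these 2-fold higher in shPCGF5, 4 lower and a median of -0.66. In NPC 8 had a peak, with 2 higher, 3 lower and a median of -0.41. No difference between families was tested.

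The genes outside the family whose covered lengths over the 8 histone lists came closest to the Pax mean were Barx1, Hoxb5, Gm1337, Gsx1 and Foxd2. The likeness was measured as the Euclidean distance of log2 covered bp among 2724 genes with a locus peak in at least 4 of the 8 lists, and these distances were 0.82, 0.95, 1.02, 1.02 and 1.13. Barx1, a homeobox gene of facial and stomach mesenchyme, covered 4333 bp of H3K27me3 in wild type NPC and 1381 bp in wild type ES.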

How the data were processed

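All values came from 10 peak lists of mouse ChIP-seq libraries; 16 libraries were described, and 6 inputs were not used here. According to the labels and the paper's methods, MNase-treated, lightly fixed chromatin was used for H2AK119ub1 and H3K27me3, and EGS- and formaldehyde-fixed, sonicated chromatin for Flag. The authors trimmed the reads, aligned them to mm9 with Bowtie2, removed duplicates and called peaks with MACS2 2.1.0 in each library separately against its input. The deposited lists give, as MACS2 writes them, a score, a fold enrichment over input, and the -log10 p and -log10 q value of each peak. A Drosophila spike-in does not enter these values. Read totals were not used, so depth is unknown, no interval could be given, and differences in list length stay in the covered lengths.

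Peaks were assigned by their centre to protein-coding genes of GENCODE M1 (mm9), with a window of 2500 bp. The log2 ratio of covered bp was taken with 200 bp added, and a gene was past the fold at 2-fold in either direction. Peaks of 2 lists were shared when they overlapped by 1 bp or more. With 1 library per group no test was run. The members and gene lists were chosen with earlier results of these data known. All 9 Pax genes are named; other genes are named from the lists (marker genes of ES and neural cells included), as those past the fold in the most comparisons or as background on a list (Gsx1 and Olig2, named after their values were seen), or as the 5 closest in pattern. Sox1 and Tfcp2l1 were not found by name in the annotation. Sequences were read from the mm9 assembly. Python 3.11.15, numpy 2.4.6, matplotlib 3.10.9 and bedtools 2.31.1 were used. The assignment was tested on simulated data, and its 90 promoter counts for the Pax genes matched those from bedtools. The alternatives tried were another overlap rule, stricter peaks, merged peaks, other windows, division by list totals, another pseudocount and, added after seeing the data, leaving out each member. The result of 1 further gene list is not reported here.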

Additional observations from a re-analysis of the deposited data

Results flagged for a closer look

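The H2AK119ub1 covered length of the Pax loci differed between genotypes in opposite directions in the 2 stages. The log2 ratio of shPCGF5 over wild type for the sum of the 9 loci was 0.24 in ES and -1.21 in NPC. At Pax3 it was 1.34 in ES and -1.85 in NPC. After division by the list totals the NPC ratios were -0.16 for the sum and -0.95 for Pax3, neither past 2-fold. No test of ES against NPC was possible with 1 library per group.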

How the results depend on the processing

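Of 204 alternative values, 195 kept their direction and moved by at most 1.5 times, 7 moved further and 2 reversed. For covered length the 1.5 times refers to the fold itself and not to its log2 value. A small log2 ratio can therefore change by more than that and still count as kept, as from 0.24 to 0.55 for H2AK119ub1 between genotypes in ES. The 204 include the ratios with each Pax gene left out, which all counted as kept. Among the 195, the number of H3K27me3 promoters in NPC went from 9 to 7 in wild type and to 6 in shPCGF5 cells when peaks within 1000 bp were merged. With the higher-scoring 50% of each list, 1 Pax gene had an NPC Flag-PCGF5 promoter peak, and the log2 ratios of the summed covered length were 0.10 for H3K27me3 of shPCGF5 over wild type ES, which reversed, and 2.53 for H3K27me3 of NPC over ES in wild type cells. With each list reduced to its best-scoring peaks, equal in number, 0 Pax genes had an NPC Flag-PCGF5 promoter peak. After division by the list totals the ratios were -0.16 for H2AK119ub1 of shPCGF5 over wild type NPC, -0.073 for H2AK119ub1 of NPC over ES in shPCGF5 cells, 0.046 for H3K27me3 of shPCGF5 over wild type NPC, which reversed, and 0.69 and 0.75 for H3K27me3 of NPC over ES in wild type and shPCGF5 cells; these shifts follow from the differing list lengths, and the cause of the others was not tested. Leaving out each Pax gene in turn, chosen after seeing the data, left every summed ratio on its side of 0; the H2AK119ub1 ratio of shPCGF5 over wild type ranged from 0.13 (without Pax3) to 0.38 (without Pax2) in ES and from -1.51 (without Pax7) to -0.996 (without Pax6) in NPC. Single genes were less stable under merging of peaks within 1000 bp, where Pax3 H3K27me3 became -3.64 for shPCGF5 over wild type NPC and -1.31 for NPC over ES in shPCGF5 cells. No paired analysis was possible because each group has 1 library.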

Other observations

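Peaks of both marks were also listed upstream of some Pax loci. In the 10 kb before the gene and outside the promoter window, H3K27me3 summed over the 9 genes to 4423 bp in wild type ES, 5122 bp in shPCGF5 ES, 24483 bp in wild type NPC and 20922 bp in shPCGF5 NPC, with peaks at 5, 4, 7 and 6 genes. H2AK119ub1 summed there to 4384, 8006, 11981 and 2830 bp in the same order, at 5, 4, 5 and 4 genes. Pax8 and Pax4 had no histone peak upstream in any list, and Pax1 and Pax9 none in ES. The share of all genes with such peaks was not computed. At Pax3, 3 wild type NPC H3K27me3 peaks covered 6426 bp upstream, more than the 5880 bp at the Pax3 locus itself, and at Pax7 the upstream H3K27me3 was 242 bp in wild type and 4335 bp in shPCGF5 NPC.

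Among the marker genes of ES and neural cells, Pou5f1, Nanog and Sox2 had no peak at their loci in any of the 10 lists. Klf4, a pluripotency factor, had no H3K27me3 peak in ES and 2156 bp in wild type and 925 bp in shPCGF5 NPC. Esrrb, on the same marker list, had H3K27me3 in ES as well. It covered 1527 bp in wild type ES, 2265 bp in shPCGF5 ES, 3004 bp in wild type NPC and 2410 bp in shPCGF5 NPC. Zfp42 had H3K27me3 only in wild type NPC, over 253 bp. Nes, which encodes the neural filament protein nestin, had H3K27me3 over 822 bp in shPCGF5 ES, 1252 bp in wild type NPC and 3405 bp in shPCGF5 NPC, and was listed at 0 in wild type ES. The other early neural genes differed among themselves. Pou3f1 H3K27me3 was lower in NPC than in ES, at 2176 bp in wild type ES, 1553 bp in shPCGF5 ES, 1629 bp in wild type NPC and 1359 bp in shPCGF5 NPC. In that order Hes5 covered 1899, 2161, 2389 and 4795 bp, and Zic1 734, 652, 6111 and 6386 bp. Of the genes of the lists set beside the Pax family, Tbx20, a heart factor, passed 2-fold in the most of the 8 comparisons, 7, with H2AK119ub1 at 3878 bp in wild type NPC and 0 in shPCGF5 NPC.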
